A study of Mus musculus with 7 samples.

Results

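Bone morphogenetic protein (BMP) signaling and its Id target genes were examined in nuclei of cultured BB-p53n OPCs, mouse oligodendrocyte progenitor cells (OPCs) engineered to form gliomas. The 10 genes were chosen by name, as the matrix entries for *Bmp4*, *Bmp7*, *Bmpr1a*, *Bmpr1b*, *Bmpr2*, *Id1*, *Id2*, *Id3*, *Id4* and *Smad7*, out of 33696 genes. Their levels were set beside *Pdgfra*, the receptor gene used to select OPCs, by comparing nuclei with 0 *Pdgfra* UMIs and nuclei with 2 or more. A UMI (unique molecular identifier) stands for 1 captured RNA molecule, and CPM is the number of UMIs of a gene per 1000000 UMIs of the nuclei considered.

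The study followed BB-p53n OPCs from culture to tumors in the brain. The cells came from Trp53 fl/fl C57BL/6 pups of either sex in the first postnatal week, were selected with an anti-CD140a (PDGFRα) antibody, and received a PDGFB-IRES-CRE retrovirus, so that every nucleus here is meant to lack Trp53 and overexpress PDGFB. They were profiled by single-nucleus RNA-seq as 1 library of cultured cells, and the 3 early-stage and 3 late-stage tumor samples were not analysed here. Neither OPCs without the virus nor another culture enter the values, so there is no replicate, no test between conditions and no p-value, and all intervals are 95% intervals that cover counting error only.

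BMP ligands such as BMP4 and BMP7 bind a complex of type I receptors (BMPR1A, BMPR1B) and a type II receptor (BMPR2). In it the type I receptors phosphorylate SMAD1, SMAD5 and SMAD9. These enter the nucleus with SMAD4 and switch on target genes, among which the Id genes are the best known and *Smad7* encodes a feedback inhibitor. Id proteins have a helix-loop-helix but no basic DNA-binding region, and so hold bHLH partners away from DNA. In OPCs the pathway is known for holding back oligodendrocyte differentiation and for favoring astrocytic fates.

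After barcodes with 2000 to 8000 detected genes were kept, 8917 nuclei with 141138093 UMIs remained, with a median of 13771 UMIs and 4718 genes. Among them 2341 nuclei (26.25%) had 0 *Pdgfra* UMIs, 5576 (62.53%) had 2 or more, and the 1000 nuclei with exactly 1 were placed in neither group. Depth differed between the groups, with a median of 10621 UMIs at 0 *Pdgfra* and 16258 at 2 or more. Below, nuclei without *Pdgfra* means nuclei with 0 *Pdgfra* UMIs, a count that sampling alone can also give. The nuclei carried OPC transcripts, with *Olig1* at 618 CPM, *Olig2* at 293 CPM and *Sox10* at 87.3 CPM. Markers of several other cell types are given below, not all of them as whole lists. Clustering with the 10 genes and *Pdgfra* left out of the variable genes gave 8 clusters, numbered 0 to 7. *Trp53* was still counted at 24.8 CPM and *Pdgfb* at 0.531 CPM, and without a control library, or knowledge of which part of each gene the reads came from, neither checks the engineering. Cluster 1, with 1733 nuclei, had the lowest *Pdgfra* level (19.3 CPM, against 147 to 349 CPM in the others) and held 66.5% of the nuclei with 0 *Pdgfra* UMIs but 1.04% of those with 2 or more.

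Cluster 1 also differed in sex-linked RNA. Nuclei with *Xist*, the RNA of the inactive X chromosome, and no UMI of the Y-linked genes made up 90.9% of cluster 1 and 0.576% to 27.1% of each other cluster. They made up 62.0% of the nuclei with 0 *Pdgfra* UMIs and 6.21% of those with 2 or more. Cells of both sexes went into the culture, and the part of this difference in the values below was not tested beyond the values given within each kind of nucleus.

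*Id2*, *Bmpr1a* and *Bmpr2* were the most abundant of the 10 genes and *Bmp4* the least. Per kilobase of the longest annotated transcript, *Id3* was highest at 56.7 CPM per kb and *Id2* followed at 50.9. The receptors and *Bmp7* came next, with *Bmpr1a* at 21.1, *Bmp7* at 15.4, *Bmpr2* at 10.8 and *Bmpr1b* at 6.26 CPM per kb. *Smad7* (1.58), *Id4* (1.17), *Id1* (0.515) and *Bmp4* (0.0183 CPM per kb) were lowest. No neighbors in this order had overlapping counting intervals, but the order rests on annotated lengths. Nuclear RNA holds unspliced transcripts, and per kilobase of the gene's span *Id2* (46.6 CPM per kb) stood above *Id3* (32.1), while *Bmpr1b*, whose gene spans 332 kb, fell to 0.107.

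Of the ligands, *Bmp7* was transcribed in most clusters and *Bmp4* was scarcely detected. *Bmp7* (chr2:172709805-172782410, minus strand, GRCm39) had 8833 UMIs in the library, or 62.6 CPM (61.3 to 63.9), and at least 1 UMI in 51.2% of nuclei. *Bmp4* (chr14:46620250-46636745, minus strand) had 9 UMIs in all, or 0.0638 CPM (0.0292 to 0.121), found in 7 nuclei. At this depth 0 UMIs among the nuclei without *Pdgfra* allows a *Bmp4* level of up to 0.112 CPM, and the 6 UMIs in nuclei with 2 or more *Pdgfra* UMIs amount to 0.0583 CPM, so no difference between the groups was detectable.

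*Bmp7* followed *Pdgfra*. It was at 19.2 CPM (17.6 to 20.9) in nuclei with 0 *Pdgfra* UMIs and at 75.5 CPM (73.8 to 77.2) in nuclei with 2 or more, 3.94-fold higher in the latter (3.60 to 4.31). Among clusters the lowest level was 9.26 CPM (cluster 1), the next lowest 46.0 CPM (cluster 4) and the highest 87.2 CPM (cluster 2). Cluster 1 lay at 0.128 times the other nuclei (0.111 to 0.147). With every nucleus thinned to 5000 UMIs, *Bmp7* went from 36.7 CPM at 0 *Pdgfra* UMIs to 68.3 at 1, 77.9 at 2, 88.2 at 3 and 90.5 at 4 or more. The last 3 intervals overlap one another, so that most of the difference lay between nuclei with 0 *Pdgfra* UMIs and the rest.

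Among the receptors, the type II receptor was the least uneven over nuclei, the type I receptor *Bmpr1a* moderately uneven and the type I receptor *Bmpr1b* concentrated in few nuclei. *Bmpr2* (chr1:59802544-59918173, plus strand) stood at 139 CPM (137 to 141) with a UMI in 80.5% of nuclei, close to the 83.1% that an even spread over nuclei of these depths would give. Over clusters its level still ranged from 103 to 244 CPM. *Bmpr1a* (chr14:34132687-34225379, minus strand) stood at 144 CPM (142 to 146) and was found in 75.9% of nuclei. *Bmpr1b* (chr3:141542897-141875323, minus strand) stood at 35.5 CPM (34.5 to 36.5) but was found in only 23.5% of nuclei where an even spread would give 40.8%. The 10% of nuclei with the most *Bmpr1b* held 70.0% of its UMIs, against 33.9% for *Bmpr1a* and 30.2% for *Bmpr2*.

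**Figure D1:**
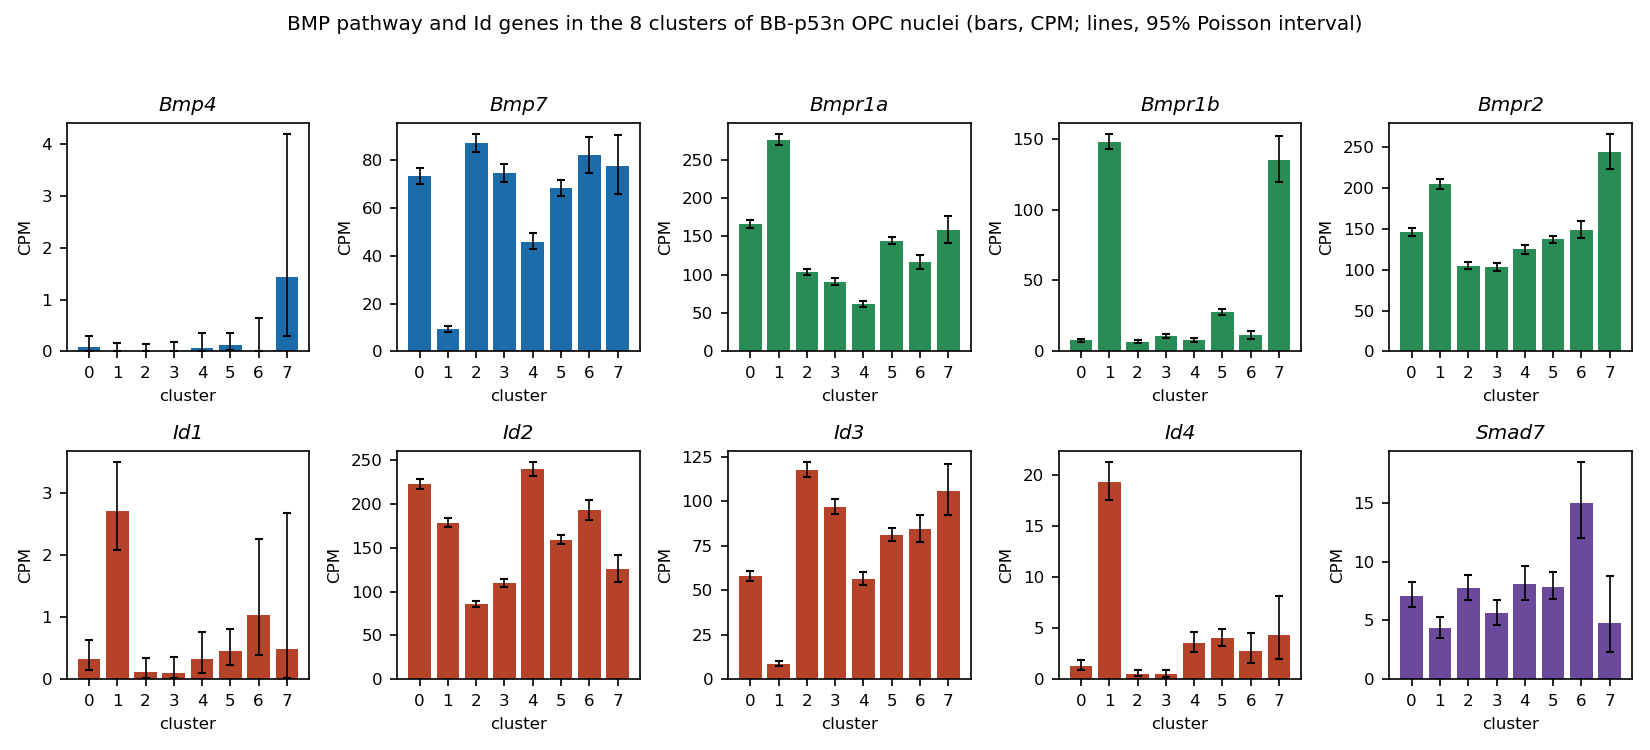
Level of each gene (CPM, vertical axis, from 0) in the 8 clusters of nuclei (horizontal axis); bars are CPM and lines are 95% Poisson intervals, with ligands in blue, receptors in green, Id genes in red and *Smad7* in purple. *Bmpr1b* and *Id4* peak in cluster 1 at 148 and 19.3 CPM, where *Bmp7* and *Id3* are lowest at 9.26 and 8.58 CPM, and cluster 7 shares the high *Bmpr1b* level but not the low *Id3* level.

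All 3 receptor genes were higher in nuclei without *Pdgfra*, to very different degrees. *Bmpr1b* was at 114 CPM (110 to 118) with 0 *Pdgfra* UMIs and at 15.6 CPM (14.8 to 16.4) with 2 or more, a ratio of 7.31 (6.88 to 7.77). For *Bmpr1a* the values were 225 and 124 CPM, a ratio of 1.81 (1.75 to 1.86), and for *Bmpr2* 187 and 126 CPM, a ratio of 1.48 (1.43 to 1.53). *Bmpr1b* accordingly supplied 33.7% of the type I receptor UMIs (32.7% to 34.7%) at 0 *Pdgfra* UMIs but 11.2% (10.6% to 11.7%) at 2 or more. Thinned to 5000 UMIs, *Bmpr1b* fell from 75.1 CPM at 0 *Pdgfra* UMIs to 19.0 at 1, 14.3 at 2, 13.5 at 3 and 6.54 at 4 or more, with 20 UMIs in the last class. The share of cluster 1 nuclei across the same classes was 43.3%, 3.14%, 0.645%, 0.249% and 0%.

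**Figure D2:**
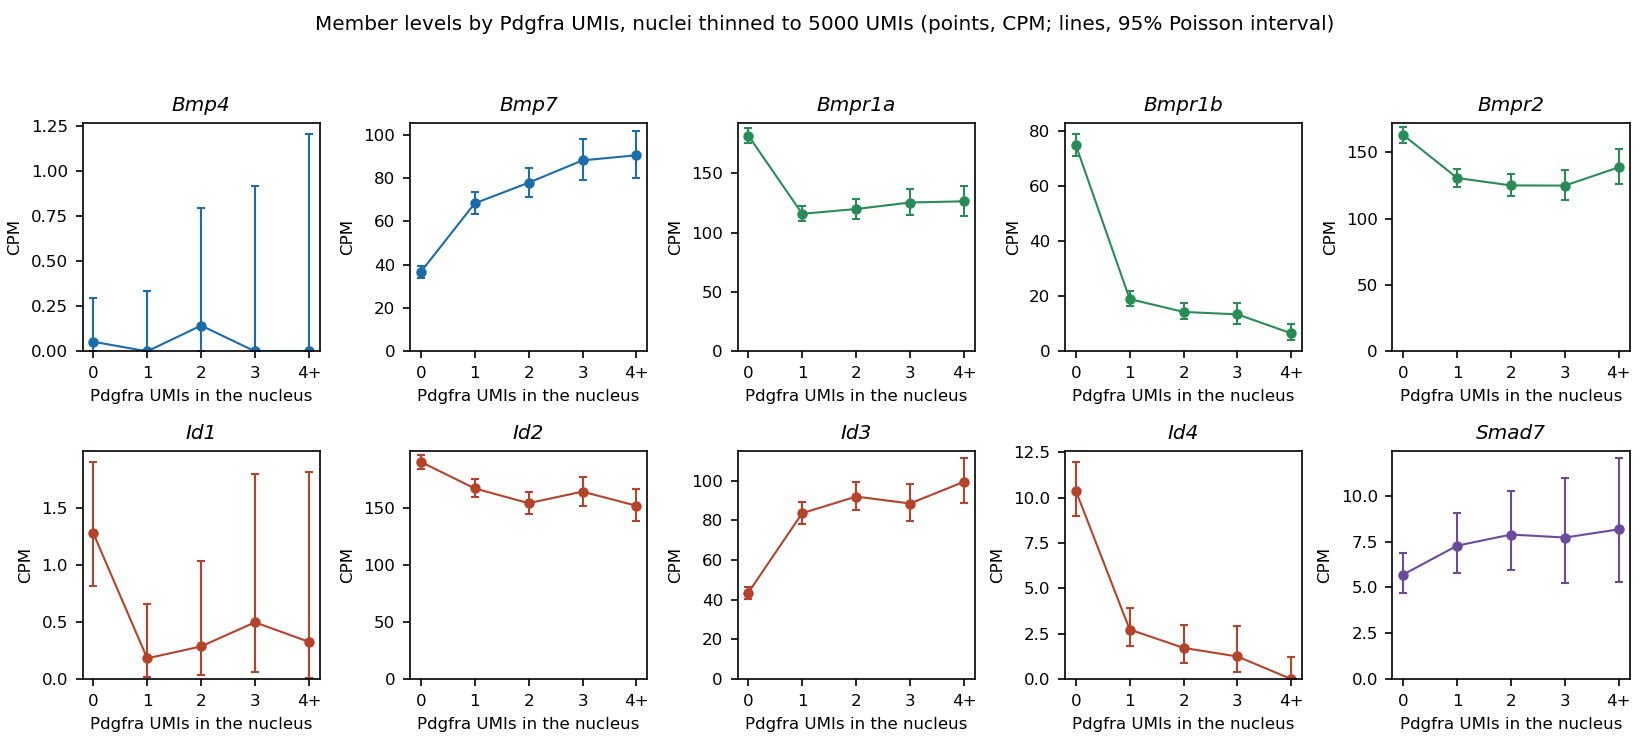
Level of each gene (CPM, vertical axis, from 0) in nuclei with 0, 1, 2, 3 or at least 4 *Pdgfra* UMIs (horizontal axis), after every nucleus was thinned to 5000 UMIs; points are CPM and lines are 95% Poisson intervals. *Bmpr1b*, *Id4* and *Bmpr1a* drop and *Bmp7* and *Id3* climb mainly between 0 and 1 *Pdgfra* UMI, while *Bmp4*, *Id1* and *Smad7* rest on few UMIs.

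Across clusters *Bmpr1b* was high in 2 places. It reached 148 CPM (143 to 153) in cluster 1 and 135 CPM (120 to 152) in cluster 7, a group of 179 nuclei, and lay between 6.66 and 28.0 CPM elsewhere. These intervals overlap, yet the clusters differed in the rest of the pathway. Cluster 7 had *Pdgfra* at 314 CPM, *Id3* at 106 CPM, *Bmp7* at 77.5 CPM and the highest *Bmpr2* level, 244 CPM (223 to 266), whereas cluster 1 had *Id3* at 8.58 CPM and *Bmp7* at 9.26 CPM. *Bmpr1b* made up 46.0% of type I receptor UMIs in cluster 7 and 34.9% in cluster 1. Cluster 7 held 3 of the 9 *Bmp4* UMIs.

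*Bmpr1a* had its highest level in cluster 1 as well, at 276 CPM (269 to 283), 2.32 times the other nuclei. Its lowest level, 61.7 CPM (57.8 to 65.8), was in cluster 4, where it lay at 0.401 times the other nuclei (0.375 to 0.428). Chromosome 14, which carries both *Bmpr1a* and *Bmp4*, took a share of the UMIs of cluster 4 that was 0.608 times its share elsewhere, and its genes had a median log2 difference of −0.85. Cluster 4 also had the largest share of nuclei with Y-linked UMIs and no *Xist*, 78.1%. The part of the chromosome in the low *Bmpr1a* level was not tested.

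The Id genes differed from one another more than the receptors did, both in level and in their relation to *Pdgfra*. *Id2* (chr12:25143798-25147282, minus strand) was the most abundant at 163 CPM (160 to 165) with a UMI in 76.3% of nuclei. *Id3* (chr4:135870808-135873066, plus strand) had 72.5 CPM (71.1 to 73.9) and was found in 47.9% of nuclei. *Id4* (chr13:48414558-48419502, plus strand) had 661 UMIs, or 4.68 CPM (4.33 to 5.05), and *Id1* (chr2:152566218-152579544, plus strand), a standard readout of BMP signaling, had 96 UMIs, or 0.680 CPM (0.551 to 0.831) with none in 8852 of the 8917 nuclei.

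Nuclei without *Pdgfra* had less *Id3* and more of the other Id genes. *Id3* was at 24.1 CPM (22.3 to 26.0) with 0 *Pdgfra* UMIs and at 86.6 CPM (84.8 to 88.4) with 2 or more, 3.60-fold higher in the latter (3.32 to 3.90). *Id4* ran the opposite way, at 15.8 CPM (14.3 to 17.4) and 1.78 CPM (1.53 to 2.06), a ratio of 8.88 (7.45 to 10.6). *Id1* had 53 UMIs in the nuclei with 0 and 25 in those with 2 or more, 1.99 and 0.243 CPM, a ratio of 8.17 (4.99 to 13.7). *Id2* was at 198 and 149 CPM, a ratio of 1.34 (1.30 to 1.38). Chromosome 12, which carries *Id2*, took 1.43 times as large a share of UMIs at 0 *Pdgfra* as at 2 or more, and the median log2 ratio of its genes was 0.54 against 0.42 for *Id2* itself.

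These opposite differences cancelled in the sum. The 4 Id genes together stood at 240 CPM (235 to 246) with 0 *Pdgfra* UMIs and at 237 CPM (234 to 240) with 2 or more, a ratio of 1.01 (0.986 to 1.04), while their makeup changed. *Id2* supplied 82.6% of Id UMIs in the first group and 62.6% in the second, *Id3* supplied 10.0% and 36.5%, and *Id4* supplied 6.58% and 0.750%. Among clusters *Id3* gave between 4.10% (cluster 1) and 57.6% (cluster 2) of Id UMIs, and *Id4* between 0.239% (cluster 3) and 9.23% (cluster 1). The summed Id level ranged between 204 and 300 CPM over the 8 clusters, a ratio of 1.47, whereas *Id3* ranged 13.7-fold and *Id2* 2.79-fold. *Id2* peaked in cluster 4 (240 CPM) and cluster 0 (223 CPM) and was lowest in cluster 2 (86.1 CPM), the cluster in which *Id3* was highest (118 CPM). The share of chromosome 12 in the UMIs of clusters 4, 0 and 2 was 1.23, 1.145 and 0.684 times its share elsewhere. It was 1.44 and 1.21 times in clusters 1 and 7, where *Id2* stood at 179 and 126 CPM. The part of the chromosome in the *Id2* levels was not tested.

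*Smad7* (chr18:75500374-75529006, plus strand) had 1002 UMIs, or 7.10 CPM (6.67 to 7.55), and a UMI in 10.1% of nuclei, close to the 10.5% of an even spread. It was at 5.32 CPM with 0 *Pdgfra* UMIs and 7.50 CPM with 2 or more, a ratio of 0.709 (0.588 to 0.849). Cluster 6 had the highest level at 15.0 CPM and cluster 1 the lowest at 4.34 CPM. Outside cluster 1 the ratio was 1.11 (0.853 to 1.43), which spans 1, so no relation of *Smad7* to *Pdgfra* was detectable there at this depth.

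Of the 10 genes, 8 had at least 5 CPM in one of both *Pdgfra* groups, all but *Bmp4* and *Id1*, and *Id4* passed through the group in which it was high. Among all 11270 genes that met this floor, 7.39% were at least 2-fold higher and 5.5% at least 2-fold lower in nuclei with 0 *Pdgfra* UMIs. *Bmpr1b* and *Id4* were among the first and *Bmp7* and *Id3* among the second. *Bmpr1b* lay above 98.95% of the genes, with 117 genes higher, and *Bmp7* above 0.976%, with 110 genes lower. The median log2 ratio was 0.143 over all genes and 0.492 over the 8, and 4 of the 8 (*Bmpr1a*, *Bmpr2*, *Id2* and *Smad7*) lay within 2-fold.

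**Figure D3:**
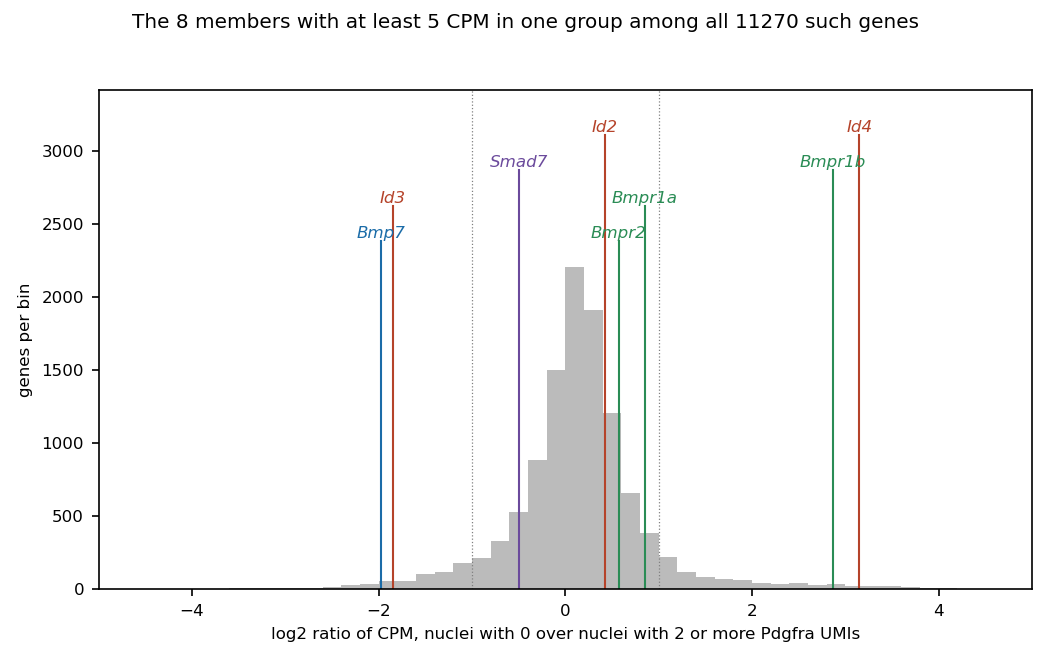
Distribution of the log2 ratio of CPM (nuclei with 0 over nuclei with at least 2 *Pdgfra* UMIs, horizontal axis) over all 11270 genes with at least 5 CPM in one group (grey bars, genes per bin of 0.2), with vertical lines at the 8 pathway genes that met this floor and dotted lines at a 2-fold difference. *Bmp7* (−1.98) and *Id3* (−1.85) lie in the lower tail, *Bmpr1b* (2.87) and *Id4* (3.15) in the upper tail, and the other 4 between −0.50 and 0.85.

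Most of this contrast coincided with cluster 1. In the 7184 nuclei outside it, 784 of which had 0 *Pdgfra* UMIs, none of the 7 genes that met the floor was past 2-fold in either direction, and of all 11081 genes 2.87% were higher and 0.695% lower. *Id4* fell just under the floor of 5 CPM there and so was not counted, although its ratio was past 2-fold. There *Bmpr1b* was at 21.0 and 13.9 CPM, a ratio of 1.51 (1.28 to 1.78), and *Id4* at 4.46 and 1.60 CPM, a ratio of 2.79 (1.88 to 4.03). *Bmp7* was at 48.0 and 76.2 CPM, a ratio of 0.631 (0.567 to 0.699), and *Id3* at 67.3 and 87.4 CPM, a ratio of 0.770 (0.704 to 0.840). In this pool the 4 genes lay on the same side of 1 as in all nuclei, with a smaller difference. *Bmpr1a* changed sides, at 90.7 and 123 CPM, a ratio of 0.740 (0.685 to 0.798), and *Id2* moved further up, at 243 and 148 CPM, a ratio of 1.64 (1.56 to 1.72). The summed Id level was then 1.33 times as high in nuclei with 0 *Pdgfra* UMIs (1.27 to 1.38). A constant *Pdgfra* rate within each cluster would by sampling alone put 407.7 nuclei outside cluster 1 at 0 UMIs, against 784 counted. The median depth there was 8948.5 UMIs at 0 and 16180.5 at 2 or more. The part of sampling and depth in these ratios was not tested.

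Within single clusters the relation was less uniform. Apart from cluster 1, clusters 0, 3, 4, 5 and 6 had at least 40 nuclei in both groups. In cluster 4 a constant *Pdgfra* rate would put 261.4 nuclei at 0 UMIs, against 416 counted. *Id3* was below 1 in clusters 0 (0.777, 0.592 to 1.00) and 3 (0.830) and slightly above it in clusters 4 (1.07), 5 (1.07) and 6 (1.01), and all 5 intervals span 1. *Bmp7* was below 1 in all 5, from 0.682 to 0.840, with intervals that span 1 in clusters 3, 5 and 6. *Bmpr1b* ranged from 0.748 (0.318 to 1.51) in cluster 0, with 8 UMIs in nuclei without *Pdgfra*, to 4.20 (2.40 to 7.23) in cluster 6, and its interval lay above 1 in clusters 4, 5 and 6. *Id4* had its interval above 1 in cluster 4 alone of these 5 (2.80, 1.44 to 5.55), with 0 to 24 UMIs in nuclei without *Pdgfra*.

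**Figure D4:**
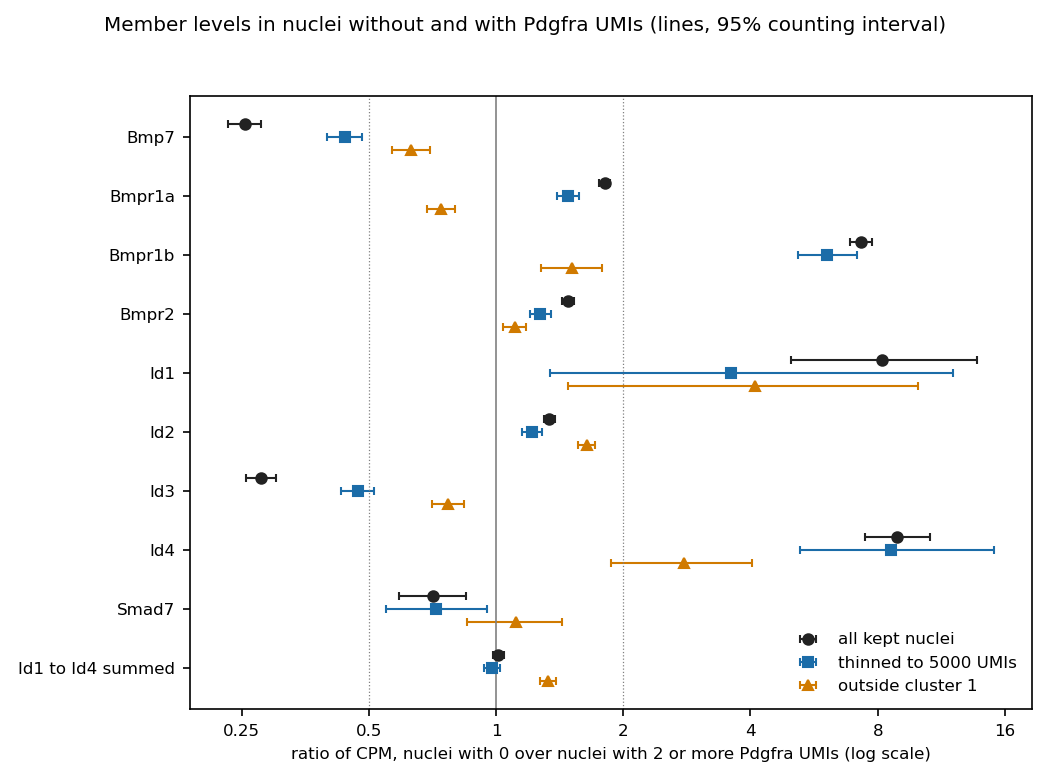
Ratio of CPM between nuclei with 0 and nuclei with at least 2 *Pdgfra* UMIs (horizontal axis, log scale; solid line at 1, dotted lines at 0.5 and 2) for 9 of the 10 genes and the sum of the Id genes, in all kept nuclei (circles), after thinning to 5000 UMIs (squares) and outside cluster 1 (triangles); lines are 95% counting intervals. After thinning, the groups were formed again from the thinned *Pdgfra* counts, with 3752 nuclei at 0 and 2810 at 2 or more, against 2341 and 5576 before. The ratios of these groups lie nearer 1 and on the same side, except for the Id sum, which lies at 1.01 and 0.980. Leaving out cluster 1 moves *Bmpr1b* from 7.31 to 1.51 and *Bmpr1a* from 1.81 to 0.740.

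Inside cluster 1, only 58 nuclei had 2 or more *Pdgfra* UMIs beside 1557 with 0. *Bmpr1b* was high in both, at 119 CPM (103 to 137) and 153 CPM (147 to 158). *Id3*, by contrast, was at 36.9 CPM (28.3 to 47.5) in the former and at 6.10 CPM (5.04 to 7.32) in the latter, and *Bmp7* was at 33.3 CPM (55 UMIs) and 7.16 CPM (135 UMIs). The 58 nuclei were deeper, with a median of 28555.5 UMIs against 11384 in the 1557. The part of depth, or of doublets (barcodes that hold more than 1 nucleus), in these differences was not tested. *Id4* gave 12.7 CPM (7.87 to 19.4) and 20.5 CPM (18.5 to 22.7), intervals that overlap.

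**Figure D5:**
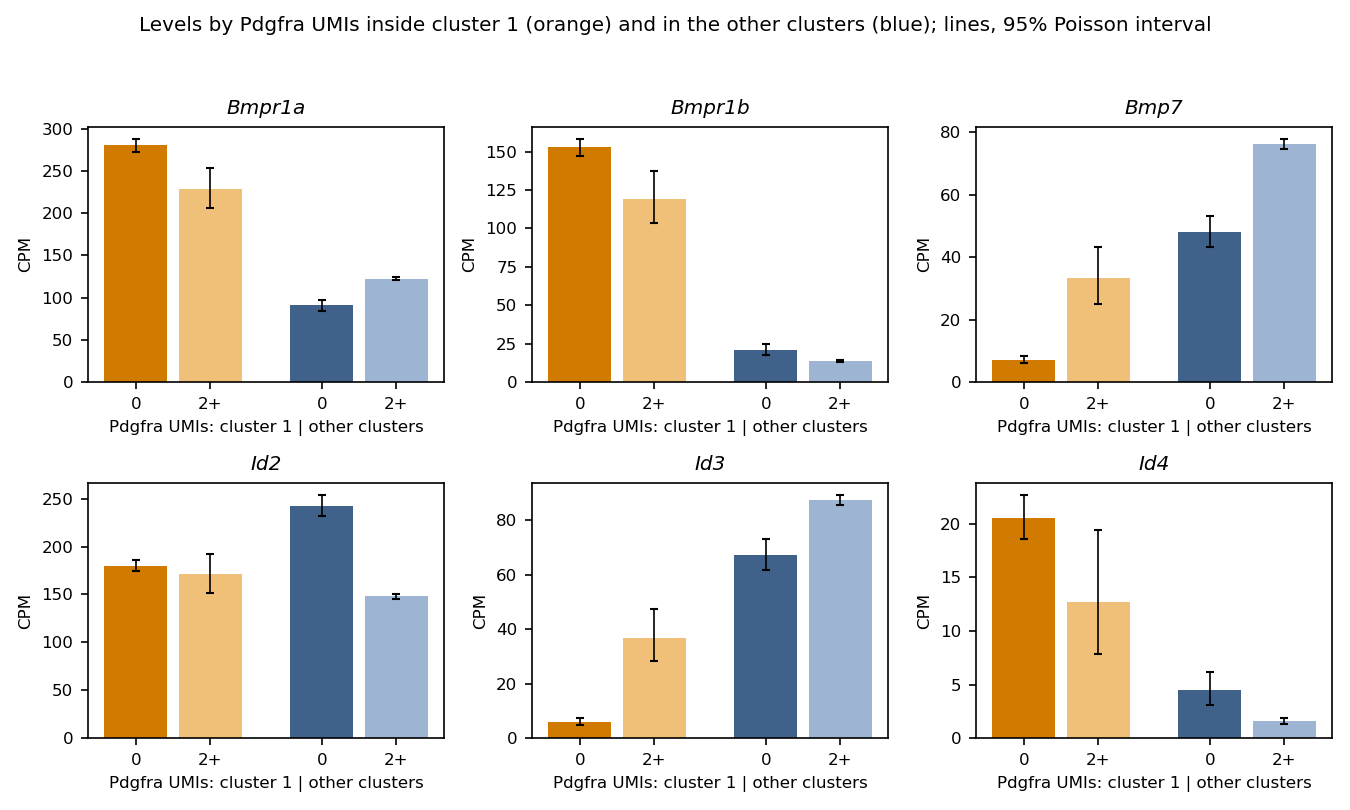
Level (CPM, vertical axis, from 0) of 6 genes in nuclei with 0 or at least 2 *Pdgfra* UMIs (horizontal axis), inside cluster 1 (orange; 1557 and 58 nuclei) and in the other clusters (blue; 784 and 5518 nuclei); bars are CPM and lines are 95% Poisson intervals. *Bmpr1a* and *Bmpr1b* are above 119 CPM in both orange bars, whereas *Id3* and *Bmp7* are lower at 0 than at 2 *Pdgfra* UMIs in both colors.

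A mitochondrial limit moved some ratios as well. In the 1954 kept nuclei with at most 5% mitochondrial UMIs, *Id3* was at 0.511 (0.436 to 0.596), no longer past 2-fold, *Bmp7* at 0.40 (0.335 to 0.473) and *Bmpr1a* at 1.16 (1.07 to 1.26), while *Bmpr1b* was at 6.70 and *Id4* at 8.03.

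The ratios also differed among kinds of nuclei by sex-linked RNA. *Id3* at 0 over 2 or more *Pdgfra* UMIs was at 0.0502 (0.0382 to 0.0650) in nuclei with *Xist* only, at 0.952 (0.845 to 1.07) in nuclei with Y-linked UMIs only and at 0.690 in nuclei with neither. For *Bmp7* the same ratios were 0.145, 0.651 and 0.493. *Bmpr1b* stood at 2.63, 1.94 and 5.18 and *Id4* at 2.65, 3.46 and 8.58, above 1 throughout. *Bmpr1a* was at 1.53 in the nuclei with *Xist* only and at 0.654 in those with Y-linked UMIs only.

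Promoter windows of *Bmpr1b* and *Id4*, the genes with the highest ratios among those past the floor, are shown because both genes were highest in cluster 1. RefSeq promoter windows of 250 bases before a gene start (GRCm38.p6) matched 7 of the 10 genes, all but *Bmp7*, *Id1* and *Smad7*, and each was placed in GRCm39 by an exact match. Bases inside annotated exons are left out, which leaves 216 bases of the *Id4* window (chr13:48414342-48414557, plus strand) and 195 bases of the most upstream *Bmpr1b* window (chr3:141688081-141688275, minus strand). That *Bmpr1b* window lies inside the annotated span of the gene and not before its outermost start. Capitals mark GGCGCC, the letters of a known GC-rich site for SMAD1 and SMAD5, and CANNTG, the E-box of bHLH proteins, where N is any base. Both motifs read the same on both strands.
Id4: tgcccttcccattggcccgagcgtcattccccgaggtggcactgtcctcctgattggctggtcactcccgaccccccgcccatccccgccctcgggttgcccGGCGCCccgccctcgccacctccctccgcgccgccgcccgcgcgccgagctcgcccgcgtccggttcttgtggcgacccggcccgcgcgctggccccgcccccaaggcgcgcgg
Bmpr1b: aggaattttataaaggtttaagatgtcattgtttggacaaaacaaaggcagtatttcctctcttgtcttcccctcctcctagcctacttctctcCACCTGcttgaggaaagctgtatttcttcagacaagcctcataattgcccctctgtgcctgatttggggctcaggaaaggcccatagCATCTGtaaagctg

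The 2 genes shared a cluster but not these letters. Motifs were counted in whole windows, and all 250 bases of the *Id2*, *Id3*, *Bmpr1a* and *Bmpr2* windows lie in annotated exons. GGCGCC occurred 1 time in the *Id4* window, 148 bases before the start, and 1 time each in the windows of *Id2*, *Bmpr1a* and *Bmpr2*. It occurred in none of the 3 windows of *Bmpr1b* and not in those of *Id3* and *Bmp4*, and 9.65% of all 32536 RefSeq windows hold it. E-boxes, held by 66.2% of all windows, occurred 2 times in the *Bmpr1b* stretch and not in the *Id4*, *Id3*, *Bmpr1a* and *Bmpr2* windows. GTCT, the short SMAD3 and SMAD4 box searched on both strands, is in 82.9% of all windows. G and C made up 75.6% of the *Id4* window and 46.8% of that *Bmpr1b* window.

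The rest of the pathway was read from lists of 60 further genes. Of these 32 met the floor of 5 CPM, 7 were at least 2-fold higher in nuclei with 0 *Pdgfra* UMIs, none was at least 2-fold lower, and 25 were within 2-fold, against the 7.39% and 5.5% of all genes. *Nbl1*, *Atoh8*, *Hes5* and *Tgfbr3* met the floor only in the group in which they were higher. The other 28 were under the floor, 5 of them without a UMI, and they include all 12 other BMP ligands, with *Bmp2* the highest at 1.70 CPM. Among receptors and co-receptors the co-receptor *Rgma* was higher, at 38.9 against 16.4 CPM (2.37-fold, 2.19 to 2.56). Among 15 antagonists and inhibitors the secreted antagonist *Nbl1* was higher, at 19.2 against 2.71 CPM (7.08-fold, 6.11 to 8.23), and the 6 others that met the floor were not past 2-fold. Of these 6, *Chrdl1*, named after its value was seen, was lower, at 20.9 against 37.7 CPM (ratio 0.553, 0.505 to 0.605). It was more abundant in the library than *Nbl1*, at 34.4 against 6.29 CPM. The rest of the 6 had ratios between 0.957 and 1.07.

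Among other targets, *Atoh8*, a bHLH factor gene, stood at 6.03 against 0.467 CPM, a ratio of 12.9 (9.31 to 18.2). *Hes5*, a repressor gene best known as a Notch target and listed with the bHLH genes, stood at 10.5 against 3.41 CPM (3.06-fold). In the TGF-beta branch, *Tgfbr2* (3.52-fold), *Tgfbr3* (2.95-fold) and *Smad3* (2.56-fold) were higher. The Smads that carry the BMP signal, named after their values were seen, were within 2-fold, with *Smad1* at 77.1 against 48.1 CPM (1.61-fold), *Smad5* at 63.5 against 42.6 CPM (1.49-fold) and *Smad4* at 111 against 100.3 CPM (1.11-fold). *Nbl1* thus differed in the direction of *Bmpr1b* and *Id4*, and *Chrdl1*, like the ligand *Bmp7*, in the opposite direction.

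Markers of several cell types were set beside the same groups, and the sums of the oligodendrocyte and neuron lists are not reported here. The 8 OPC markers summed to 2625 CPM with 0 *Pdgfra* UMIs and 5873 CPM with 2 or more, and *Pdgfra* itself is one of them. The oligodendrocyte markers *Mog*, *Mag* and *Mobp* had 10 UMIs or fewer each in the library. The 10 astrocyte markers summed to 725 and 738 CPM, led by *Slc1a3* (237.5 CPM in the library), *Sox9* (205 CPM), *Aldoc* (192.0 CPM) and *S100b* (91.9 CPM), with *Gfap* at 1.13 and *Aqp4* at 0.0283 CPM. Single members differed in both directions. Of the 6 that met the floor of 5 CPM, *Fgfr3* (12.3 against 5.41 CPM) was at least 2-fold higher at 0 *Pdgfra* UMIs. *S100b* (24.8 against 110 CPM) and *Slc1a2* (7.4 against 15.4 CPM) were at least 2-fold lower. The shares of all genes were 7.39% and 5.5%. Endothelial markers (8.73 and 7.40 CPM), microglial markers (7.86 and 7.10 CPM) and fibroblast or pericyte markers (0.599 and 0.515 CPM) were low in both groups. In the library *Pecam1* had 770, *Flt1* 304, *P2ry12* 741 and *Cx3cr1* 216 UMIs, while *Cldn5* and *C1qa* had 0. The endothelial sum reached 60.5 CPM in cluster 6, where *Smad7* was highest. The 6 cell cycle genes summed to 1732 and 1921 CPM. Their part in the values of the 10 genes was not tested.

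Across single nuclei the pathway genes were only weakly related. Over the 8760 nuclei thinned to 5000 UMIs, which share 1 library and 1 depth, the strongest correlation of log(1 + UMIs) between a pair of the 10 genes was that of *Bmpr1a* and *Bmpr1b* (Pearson's r = 0.169), followed by *Bmpr1b* and *Id4* (0.146), and *Bmpr1b* and *Id3* stood at −0.123. Outside cluster 1 these were 0.055, 0.019 and −0.008. *Id3* was detected in 11.2% of thinned nuclei with *Bmpr1b* (9.44% to 13.1%) and in 27.4% of those without (26.4% to 28.5%). Outside cluster 1 the shares were 29.1% (24.7% to 33.8%) and 30.9% (29.8% to 32.0%), which overlap. No nuclei here are known to lack these genes, so the share that free RNA would give is unknown, and sparse counts lower every correlation.

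For each gene with at least 20 CPM, the 3 genes of most similar pattern were taken from the 7349 genes above the same level. For *Bmpr1b* they were *Xist* (r = 0.435), *Igfbp2* (0.385) and *Vav3* (0.377), and *Xist* and *Vav3* were also among the 3 of *Bmpr1a* and *Bmpr2*. For *Bmp7* (0.218) and *Id3* (0.223) the first was *Cntn1*, an adhesion gene, followed by *Lhfpl3* and *Pcdh15* for *Bmp7* and by *Ybx1* and *Ppp2r2b* for *Id3*. Outside cluster 1 *Cntn1* dropped to 0.013 with *Bmp7* and −0.014 with *Id3*. *Id2* was the exception, with *Sox9* (0.178), *Ckb* (0.174) and *Gap43* (0.170) in all nuclei and 0.212, 0.206 and 0.207 outside cluster 1. These values describe 1 library and carry no test.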

How the data were processed

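A single library of BB-p53n OPC nuclei (10x 3' v3.1 chemistry) was analysed. The authors ran Cell Ranger 8.0.1 on mm39 and deposited unnormalized UMI counts for every gene in 10047 barcodes with 154375410 UMIs. Free RNA was not removed, and whether intron reads were counted is not given in the sources used here. From the deposited counts, barcodes with 2000 to 8000 detected genes were kept (8917), the range the study states. The study lists fewer nuclei after filtering, 1954. A further limit of 5% mitochondrial UMIs, which its methods do not give, leaves the same number here, so the nuclei analysed differ from the study's and that limit was run as an alternative. Gene positions came from GENCODE vM39 (GRCm39, the same build), matched for 33185 of 33696 genes.

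Counts were summed over nuclei and given as CPM with exact Poisson intervals, ratios with the exact conditional binomial interval and shares with exact binomial (Clopper-Pearson) intervals, all at 95%. The functions were tested on simulated data. Nuclei were thinned to 5000 UMIs (seed 1) for shares and correlations, which left out 157 shallower nuclei, 75 of them with 0 *Pdgfra* UMIs and 37 with 2 or more. In thinned comparisons the *Pdgfra* groups were formed again from the thinned counts, so they do not hold the same nuclei. Clusters came from Seurat 5.3.0 in R 4.3.3 (scale factor 1000, 3000 variable genes, total counts regressed out, components 1 to 20, 200 neighbors, resolution 1.0). Other steps used Python 3.11.15, numpy 2.4.6 and scipy 1.17.1. Clusters were not given cell type names. Scrublet in scanpy 1.11.5 called 0 of 8917 nuclei at its automatic threshold, and no doublets were removed. Leaving out the 8% of nuclei with the highest scores was run as an alternative.

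Genes were called past 2-fold among those with at least 5 CPM in one of both groups. The genes named were all 10 of the pathway, the genes of the pathway lists past 2-fold, and the 3 most similar genes of each with at least 20 CPM. The genes and the lists were chosen with earlier results of these data known. Alternatives covered depth, gene range, mitochondrial share, *Pdgfra* cutoffs, scaling, doublet scores, sex-linked UMIs and clustering, and 1 (the groups within cluster 4) was added after seeing the data. The tumor samples, 3 early and 3 late, were not used here, and some listed genes are not reported here.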

Additional observations from a re-analysis of the deposited data

Results flagged for a closer look

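The 918 barcodes with under 2000 detected genes, which no comparison used, also held UMIs of 8 of the 10 genes, above the limit of 3 UMIs that a count of 0 allows. *Bmpr2* was at 133.7 CPM there (117 to 152), *Id2* at 128.0 CPM, *Bmpr1a* at 122.9 CPM (107 to 140) and *Bmp7* at 55.8 CPM. *Id3* was at 55.2 CPM, *Bmpr1b* at 43.8 CPM (34.6 to 54.8), *Id4* at 4.55 CPM and *Smad7* at 4.55 CPM, the last 2 with 8 UMIs each. These levels were between 0.641 and 1.24 times those of the kept nuclei. The barcodes had a median of 1717 UMIs, and 19.5% of their UMIs were mitochondrial against 6.34% in the kept nuclei. Whether they are shallow nuclei or droplets with free RNA was not tested.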

How the results depend on the processing

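Over 15 alternatives the ratio between nuclei with 0 and with 2 or more *Pdgfra* UMIs stayed on its side of 1 for *Bmp7* (0.145 to 0.746), *Bmpr1b* (1.51 to 11.5), *Id2* (1.21 to 1.64) and *Id4* (2.65 to 14.4). *Id3* (0.0502 to 1.07) and *Id1* (0.660 to 22.8) crossed 1 within cluster 4, an alternative chosen after seeing the data, at 1.07 for *Id3* and 0.660 for *Id1*, the latter from 1 and 3 UMIs. *Id3* was also above 1 within clusters 5 (1.07) and 6 (1.01), outside these 15. Likewise outside these 15, *Bmpr1b* within cluster 0 (0.748), *Id2* within cluster 3 (0.837) and *Id4* within cluster 3 (0 against 9 UMIs) were under 1, with intervals that span 1. *Bmpr1a* (0.654 to 2.01) was under 1 in 3 alternatives, *Bmpr2* (0.909 to 1.58) in 2, and *Smad7* (0.551 to 1.11) was over 1 in 2. The ratio of the Id sum, 1.01, moved to 0.980 when thinned, 0.963 in nuclei with 10000 to 20000 UMIs, 1.06 with at most 5% mitochondrial UMIs, 1.33 without cluster 1, 0.891 in nuclei with *Xist* only, 1.30 with Y-linked UMIs only, 1.20 with neither and 1.20 within cluster 4. The number of genes at least 2-fold higher, 2, became 3 in nuclei with 10000 to 20000 UMIs (*Bmpr1a* at 2.01), 0 without cluster 1 and 1 with Y-linked UMIs only. Without cluster 1, *Id4* (2.79) fell under the floor of 5 CPM and was not counted. The number at least 2-fold lower, 2, became 1 with at most 5% mitochondrial UMIs or with neither sex-linked RNA, and 0 without cluster 1, with Y-linked UMIs only or within cluster 4. Clustering with the 10 genes and *Pdgfra* kept gave 8 clusters with an adjusted Rand index of 0.865 to those used. No paired analysis was possible because 1 library was analysed. Depth limits *Bmp4* and *Id1*, and with 1 library no value has a replicate error.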

Other observations

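The bHLH genes whose proteins Id proteins can hold away from DNA, named here after their values were seen, were far more abundant than the Id genes and differed less between the *Pdgfra* groups. *Tcf4*, which encodes an E protein, stood at 1298 CPM in the library and *Tcf12* at 797.5 CPM, with ratios of nuclei with 0 over nuclei with 2 or more *Pdgfra* UMIs of 1.23 (1.22 to 1.25) and 1.03 (1.02 to 1.05). *Tcf3* was at 106 against 76.9 CPM, a ratio of 1.38 (1.32 to 1.44). The lineage factor genes *Olig1* (0.827) and *Olig2* (0.744) were below 1. *Smad6*, an inhibitory Smad gene beside *Smad7*, had 45 UMIs in the library, at 0.899 against 0.175 CPM, a ratio of 5.14 (2.67 to 10.0), and so ran opposite to *Smad7* (0.709).

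The 212 barcodes with over 8000 detected genes, not used in the comparisons, had a median of 53105 UMIs. *Bmpr1b* was at 25.4 CPM there (22.5 to 28.4), 0.715 times its level in the kept nuclei, and *Id3* at 85.9 CPM (80.6 to 91.4), 1.19 times.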
